A study of Homo sapiens with 4 samples.

Results

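The genes described here encode the transforming growth factor beta (TGF-beta), activin, and bone morphogenetic protein (BMP) signalling pathway, measured in 4 bulk RNA-seq libraries of atypical teratoid/rhabdoid tumor (AT/RT) cell lines. Members were chosen by gene symbol, namely the TGF-beta ligands and receptors, the activin and inhibin subunits, the BMP and growth differentiation factor (GDF) ligands, the BMP and activin receptors, the SMAD proteins, 4 secreted antagonists (*FST*, *NOG*, *GREM1*, and *CHRD*), and the 4 *ID* genes. Of the 18449 gene symbols in the count table, 55 matched, and 54 of these had a count in at least 1 library. The remaining member, *GDF1*, had no count in any library, which allows up to 3 counts in each. Its exons overlap those of the protein-coding *CERS1* on the same strand, so reads of *GDF1* could have been left uncounted.

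RNA came from BT-16 and CHLA-266, established patient-derived lines of the AT/RT-MYC subtype, and the paper states that culture followed the specifications of the manufacturer. One library of each cell line was made from untreated cells. The other library was made from cells given 1 µM doxorubicin (doxo), 5 µM etoposide (eto), and 1 µM vincristine (vin) over 3 days, which left 2 libraries in each group, with the cell lines as replicates. Doxo and eto block topoisomerase II and vin blocks microtubule assembly. According to the methods, most cells died after the treatment and resistant cells grew again weeks later. The harvest for sequencing is named after this, without a stated day. In bulk RNA, fewer cells that express a gene and less RNA of that gene per cell cannot be told apart.

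TGF-beta, activin, and BMP ligands are secreted dimers that bring together a type II and a type I receptor kinase on the cell surface. The type I receptor then phosphorylates receptor-activated SMADs, with SMAD2 and SMAD3 serving mainly TGF-beta and activin receptors and SMAD1, SMAD5, and SMAD9 mainly BMP receptors. These join SMAD4 in the nucleus, where *ID* genes and the inhibitory *SMAD6* and *SMAD7* are known targets, and secreted antagonists such as follistatin and noggin trap ligands outside the cell. In tumor cells the pathway is known for its links to growth arrest, epithelial to mesenchymal transition, and extracellular matrix production.

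Total counts lay between 49849258 and 75087194, with the smaller of each pair from treated cells. The 6 proliferation markers were all downregulated after treatment, with *MKI67* at a log2 fold change of -6.03. *MKI67* had 109853 counts before and 1262 after treatment in BT-16, with 96814 and 1386 in CHLA-266. Whether the treated cells were dividing again at harvest was not tested. *SMARCB1*, the gene inactivated in most rhabdoid tumors, had 15.9 to 21.3 normalized counts per 1000000 (CPM) in the 4 libraries, and a count per gene does not show whether part of a gene is missing. Genes that such cells should not use also had more counts after treatment. Of 380 olfactory receptor genes, 121 had a count in BT-16 before treatment and 293 after it, while in CHLA-266 90 and 209 did. Of 12 markers restricted to other tissues, 7 were upregulated and none downregulated. Among the markers of other cell types, 3 of 8 leukocyte markers and 2 of 4 endothelial markers were upregulated, while the summed leukocyte level was 3.49 to 6.52 CPM in untreated and 7.45 to 11.3 CPM in treated libraries. *PTPRC*, which defines leukocytes, had a log2 fold change of -0.17 and passed in neither direction. The part of such low counts in the results on the members was not tested, and the level of each upregulated member is therefore set beside the olfactory receptor genes below.

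Because *SMAD6*, *SMAD7*, *ID1*, and *ID3* are the members best known as direct targets of SMADs, the 250 bases before their start sites are shown, from RefSeq on GRCh38.p14 and read 5′ to 3′ on the strand of the gene. Capitals mark CAGAC or its reverse complement GTCTG, the short SMAD-binding sequence, and GTCTAGAC, the palindrome bound by SMAD3 and SMAD4. The window of *SMAD6* is chr15:66701986-66702235 on the plus strand, that of *SMAD7* chr18:48950966-48951215 on the minus strand, that of *ID1* chr20:31605039-31605288 on the plus strand, and that of *ID3* chr1:23559502-23559751 on the minus strand.
SMAD6: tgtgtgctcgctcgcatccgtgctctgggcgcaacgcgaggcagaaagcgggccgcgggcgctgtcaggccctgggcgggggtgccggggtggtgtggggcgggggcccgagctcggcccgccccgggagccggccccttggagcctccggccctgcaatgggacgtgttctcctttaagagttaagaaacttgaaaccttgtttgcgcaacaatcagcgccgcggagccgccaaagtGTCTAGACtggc
SMAD7: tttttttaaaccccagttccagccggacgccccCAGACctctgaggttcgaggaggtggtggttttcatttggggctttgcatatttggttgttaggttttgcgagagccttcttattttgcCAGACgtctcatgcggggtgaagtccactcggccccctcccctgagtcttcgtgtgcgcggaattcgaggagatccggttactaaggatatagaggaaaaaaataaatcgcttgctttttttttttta
ID1: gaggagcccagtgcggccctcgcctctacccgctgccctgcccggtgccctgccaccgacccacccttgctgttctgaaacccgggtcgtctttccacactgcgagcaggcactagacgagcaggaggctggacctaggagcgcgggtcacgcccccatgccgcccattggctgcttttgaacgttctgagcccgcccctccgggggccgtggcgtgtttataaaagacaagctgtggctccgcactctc
ID3: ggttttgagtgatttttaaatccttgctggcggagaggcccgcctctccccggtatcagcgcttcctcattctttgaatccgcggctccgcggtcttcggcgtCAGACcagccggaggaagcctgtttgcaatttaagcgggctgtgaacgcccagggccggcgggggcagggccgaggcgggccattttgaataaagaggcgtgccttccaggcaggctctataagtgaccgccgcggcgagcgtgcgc

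*SMAD6* held 1 GTCTAGAC, *SMAD7* held 2 copies of CAGAC, *ID3* held 1, and *ID1* held none. Both strands were searched, and no other match overlapped these. Of the 55 members, 47 had such a window. CAGAC was found in 15 of these 47 windows (31.9%) and in 37.8% of all 27305 windows of the same length. GGCGCC, a sequence linked to BMP-activated SMADs, was found in 12 of 47 windows (25.5%) against 16.1% of all windows. GTCTAGAC was found in 0.176% of all windows and, among the members, in *SMAD6* alone. Among the members upregulated after treatment, 1 of 9 windows held CAGAC, and among those downregulated 3 of 12 did. A match describes the letters in the window and not a bound site. Bases beyond these 250 were not searched, so a window without a match does not show that a gene lacks such a site.

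The response to treatment was tested with edgeR's quasi-likelihood test over all 18066 genes with a count, with an adjusted *p* value under 0.05 as the threshold. Of the 54 members tested, 12 were upregulated and 12 downregulated after treatment, against 16.1% of all genes tested upregulated and 19.1% downregulated. The other 30 members passed in neither direction. The median log2 fold change (log2FC) was 0.27 over the members and 0.24 over all genes tested. Of 25 ligands and activin subunits tested, 7 were upregulated and 1 was downregulated, of 4 secreted antagonists 2 were upregulated and none was downregulated, and of 12 receptors and co-receptors 3 were upregulated and 5 downregulated. No SMAD was upregulated, and 5 of 8 were downregulated. Whether the roles differed from each other was not tested. Values after ± are standard errors (SE) of the log2FC. The level of a gene went with the direction of its call over the whole table. Among all genes with at least 1000 counts in some library, 10.8% were upregulated and 37.1% downregulated, and among all other genes 21.0% were upregulated and 2.57% downregulated. The median log2FC was -0.34 among the genes with at least 1000 counts and 2.06 among all other genes. The 23 members with at least 1000 counts held 3 upregulated and 11 downregulated genes, and the 31 other members held 9 and 1.

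**Figure D1:**
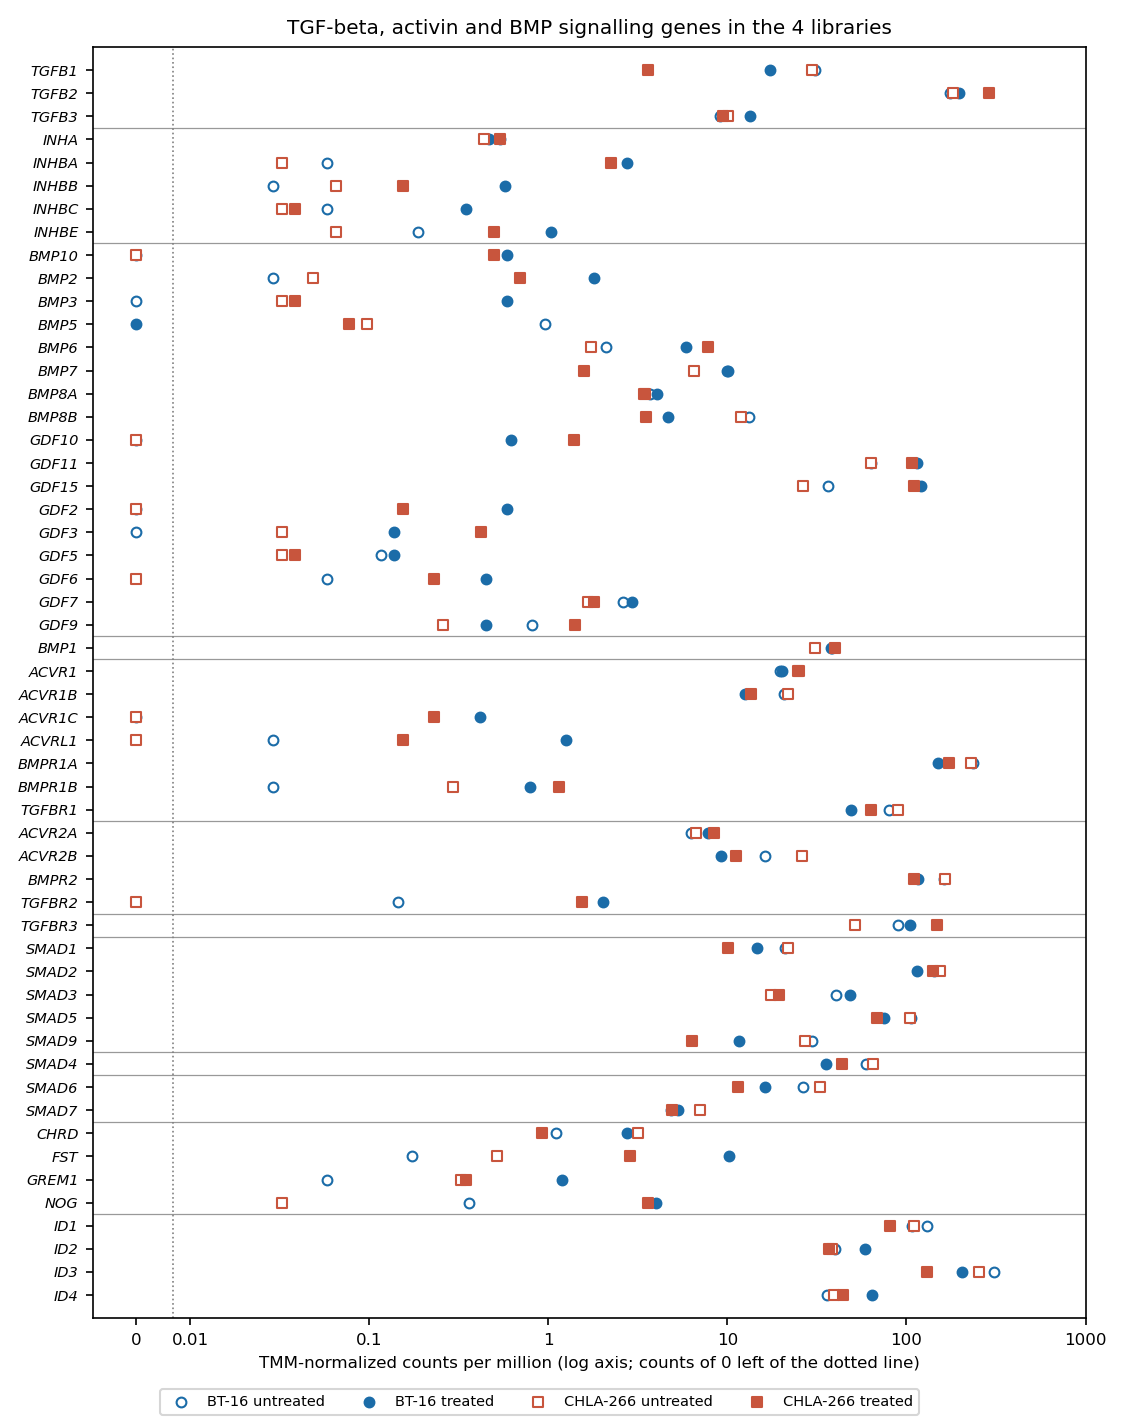
Normalized CPM (horizontal log axis) of the 54 members with a count, in order of role with lines between roles, for untreated (open) and treated (filled) BT-16 (circles) and CHLA-266 (squares) cells. *TGFB2*, *BMPR1A*, *BMPR2*, *SMAD2*, *ID1*, and *ID3* lie at or near 100 CPM or above in every library, while many ligands lie below 1 CPM in the untreated libraries.

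Among the TGF-beta ligands, *TGFB2* was the prevailing transcript in every library. Its level was 108 and 130 TPM (transcripts per 1000000, corrected for exon length) in BT-16 before and after treatment and 110 and 190 TPM in CHLA-266. Its share of the summed TPM of the 3 ligands was 72.0% before and 80.6% after treatment in BT-16, with 73.1% and 94.2% in CHLA-266. BT-16 had 12047 counts before and 11423 after treatment and CHLA-266 had 11180 and 14996, with a log2FC of 0.45 (SE 0.20, edgeR adjusted *p* = 0.114). With a block for the cell line, *TGFB2* was upregulated (log2FC 0.42, edgeR adjusted *p* = 0.0255). It passed in 6 of 12 alternatives with all libraries, and its log2FC lay between 0.16 without treated CHLA-266, where it did not pass, and 0.70 without treated BT-16.

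*TGFB1*, the most widely expressed TGF-beta ligand in many tissues, had lower levels after treatment in both cell lines. Counts were 2133 before and 1002 after treatment in BT-16, and for CHLA-266 1833 and 187. The untreated libraries were close to each other, at 30.9 and 29.8 CPM, whereas the treated libraries stood apart at 17.3 and 3.60 CPM. The log2FC was -1.53 (SE 0.56, edgeR adjusted *p* = 0.0622), which did not pass. With a block for the cell line the log2FC was -1.90 (adjusted *p* = 9.76e-06 in edgeR). The value depended on 1 library, with a log2FC of -3.07 without treated BT-16 and of -0.80 without treated CHLA-266. Each of these fits takes its spread from the untreated libraries alone, so a *p* value from it does not cover the spread between the treated libraries. *TGFB3* had 491 to 776 counts and passed in neither direction, with a log2 ratio of 0.57 in BT-16 and -0.09 in CHLA-266.

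*GDF15*, a stress-induced ligand of the family and a known target of p53, was the most abundant ligand of the BMP and GDF group. BT-16 cells had 2521 counts before and 6926 after treatment, and CHLA-266 cells 1618 and 5688. Both treated libraries were above both untreated ones, at 120 and 109 CPM against 36.5 and 26.3 CPM. It was upregulated 3.65-fold (log2FC 1.87 ± 0.20, edgeR adjusted *p* = 0.000273). Its share of the summed TPM of the BMP and GDF ligands was 56.0% before and 74.2% after treatment in BT-16, with 50.7% and 74.8% in CHLA-266. The summed TPM of that group went from 117 to 308 in BT-16 and from 91.4 to 280 in CHLA-266. Most of this rise was *GDF15* itself, which went from 65.6 to 229 TPM in BT-16 and from 46.3 to 209 TPM in CHLA-266. Which receptors *GDF15* acts on in these cells was not tested.

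*GDF11*, a circulating ligand close in sequence to myostatin, was the next most abundant of the group in TPM. It had 4350 counts before and 6625 after treatment in BT-16, with 3901 and 5550 in CHLA-266, with nearly the same level in both cell lines before treatment (63.1 and 63.4 CPM) and close levels after it (115 and 107 CPM). It was upregulated 1.75-fold (log2FC 0.81 ± 0.15, edgeR adjusted *p* = 0.00495). *BMP6*, known for its part in iron sensing and bone formation, had 145 counts before and 339 after treatment in BT-16, while CHLA-266 had 106 and 406. Both treated libraries were above both untreated ones, and the log2FC was 1.84 (SE 0.39, edgeR adjusted *p* = 0.00838). *GDF15*, *GDF11*, and *BMP6* passed the threshold without any 1 of the 4 libraries.

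The remaining upregulated ligands had few counts. *INHBA*, which encodes the subunit of activin A, had 4 counts before and 160 after treatment in BT-16, with 2 and 116 in CHLA-266 (log2FC 5.71 ± 0.80, edgeR adjusted *p* = 0.00118). *BMP2*, an inducer of bone formation, had 2 counts before and 104 after treatment in BT-16, while CHLA-266 had 3 and 36 (log2FC 4.94 ± 1.11, edgeR adjusted *p* = 0.0101), and did not pass without treated BT-16 (log2FC 4.09, adjusted *p* = 0.13). For each of the 2 genes, the treated libraries were far above the untreated ones in counts.

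*BMP10*, normally a ligand of the heart, had no count in either untreated library and 34 and 26 counts in treated BT-16 and CHLA-266 cells. Set against a floor of 3 counts in each untreated library, this was at least 11.8-fold higher (adjusted *p* = 0.0242 in edgeR), and the call was lost without treated CHLA-266 (adjusted *p* = 0.0549) or untreated BT-16 (adjusted *p* = 0.0512). *GDF10*, a ligand related to *BMP3*, was likewise at 0 in both untreated libraries and had 36 and 72 counts after treatment, at least 21.8-fold higher (adjusted *p* = 0.00744 in edgeR). In the whole table, 7.16% of the genes tested had no count in either untreated library. *GDF2*, with 34 and 8 counts after treatment, was the other ligand with counts in the treated libraries alone and did not pass (adjusted *p* = 0.0544 in edgeR).

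*BMP8B*, a ligand known from germ cells and brown fat, was the only ligand downregulated. It had 915 counts before and 270 after treatment in BT-16, with 729 and 183 in CHLA-266, so that both treated libraries were below both untreated ones. The log2FC was -1.61 (SE 0.31, edgeR adjusted *p* = 0.00507). *BMP8A*, a near-identical neighbouring copy, had 180 to 255 counts and a log2FC of 0.08. Reads may have been split between the 2 copies, so the values of both are uncertain. *BMP7*, a ligand of kidney and neural development, had 687 counts before and 581 after treatment in BT-16, while CHLA-266 had 400 and 82. BT-16 held 9.96 CPM before and 10.1 after treatment, CHLA-266 held 6.50 and 1.58, and the gene passed in neither direction (log2FC -0.50, edgeR adjusted *p* = 0.576) but was downregulated with a block for the cell line (log2FC -0.97, edgeR adjusted *p* = 0.0397), though not in DESeq2 with the same block (adjusted *p* = 0.141).

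The 11 other ligand and subunit genes, none of which passed, had at most 181 counts in any library. Of the activin and inhibin subunits, *INHA* was the highest in the untreated libraries, at 37 and 27 counts, and *INHBE* had the highest count after treatment among those that did not pass, with 60 counts in BT-16. *BMP5* stood out as lower after treatment in BT-16, with 66 counts before and 0 after, but had only 6 and 4 counts in CHLA-266 (log2FC -3.74, edgeR adjusted *p* = 0.151). *BMP1*, which shares the name but is a protease that cleaves procollagen and releases ligands, had 1889 to 2649 counts and a log2FC of 0.17 (adjusted *p* = 0.475 in edgeR).

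**Figure D2:**
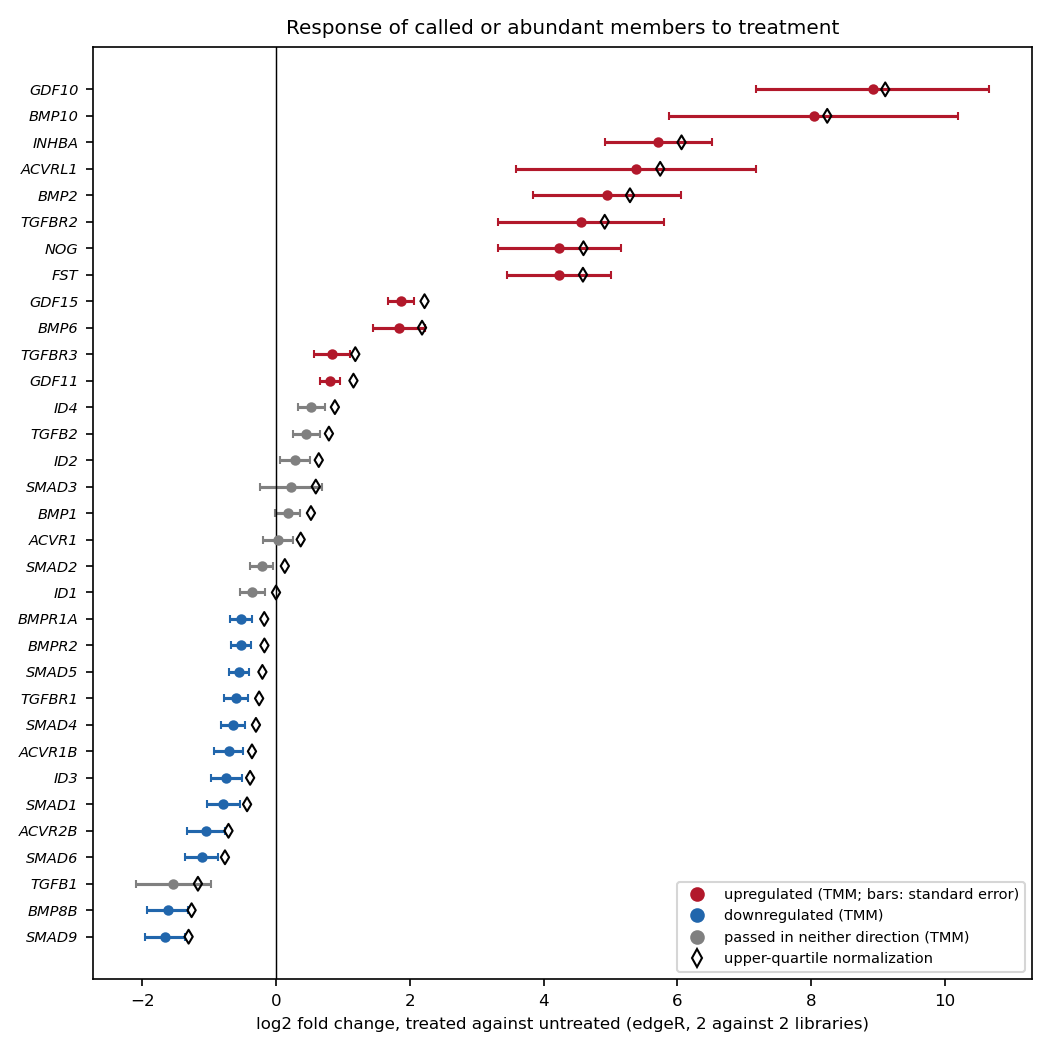
Log2 fold change (log2FC) of treated against untreated libraries (horizontal axis, 2 against 2 libraries) for each member that passed or had at least 1000 counts in some library, with standard errors as bars and diamonds for upper-quartile normalization. The 12 downregulated members lie between -1.66 and -0.52, and for every member plotted the diamond lies to the right of the point.

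Among the type I receptors, the abundant ones were downregulated or did not pass. *BMPR1A*, the main BMP type I receptor in many cells, held 56.3% to 59.9% of the summed TPM of the type I receptors in the 4 libraries. It had 16221 counts before and 8689 after treatment in BT-16, with 14165 and 9029 in CHLA-266, and its log2FC was -0.52 (SE 0.16, edgeR adjusted *p* = 0.0356). *TGFBR1*, the type I receptor of TGF-beta, had 5476 counts before and 2837 after treatment in BT-16, while CHLA-266 had 5551 and 3283 (log2FC -0.60 ± 0.18, edgeR adjusted *p* = 0.0327). *ACVR1B*, a type I receptor of activin, had 1422 counts before and 723 after treatment in BT-16, with 1341 and 701 in CHLA-266 (log2FC -0.71 ± 0.21, edgeR adjusted *p* = 0.0335). In all 3 genes, both treated libraries were below both untreated ones in CPM. *ACVR1*, another BMP and activin type I receptor, stayed between 19.8 and 25.2 CPM in the 4 libraries, with 1173 to 1530 counts and a log2FC of 0.03 (adjusted *p* = 0.933 in edgeR).

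The scarce type I receptors had higher counts after treatment. *ACVRL1*, a receptor mostly of endothelial cells, had 2 counts before and 73 after treatment in BT-16, while CHLA-266 had 0 and 8 (log2FC 5.38 ± 1.80, edgeR adjusted *p* = 0.0459). It rested on 1 library, because it did not pass without treated BT-16 (log2FC 3.21, adjusted *p* = 0.54), and it also failed without untreated CHLA-266 (adjusted *p* = 0.115) and in 3 of 10 other alternatives. *BMPR1B* and *ACVR1C* had at most 60 and 24 counts in any library and passed in neither direction, with *ACVR1C* at 0 in both untreated libraries.

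Of the type II receptors, *BMPR2*, which serves BMP ligands, held 79.8% to 86.5% of the summed TPM of the 4 genes. It had 11144 counts before and 6721 after treatment in BT-16, with 10084 and 5732 in CHLA-266 (log2FC -0.52 ± 0.15, edgeR adjusted *p* = 0.0292). *ACVR2B*, a receptor of activins and GDF11, had 1116 counts before and 534 after treatment in BT-16, while CHLA-266 had 1601 and 578 (log2FC -1.05 ± 0.28, edgeR adjusted *p* = 0.0215). Both genes were lower in both treated libraries than in either untreated one. Without untreated CHLA-266, *ACVR2B* did not pass (log2FC -0.67, edgeR adjusted *p* = 0.166). *ACVR2A*, the other activin type II receptor, had 411 to 451 counts and a log2FC of 0.32 (adjusted *p* = 0.404 in edgeR).

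*TGFBR2*, the type II receptor without which TGF-beta ligands are known not to signal, was nearly absent before treatment. It had 10 counts in untreated BT-16 and none in untreated CHLA-266 cells, and 117 and 80 counts after treatment. Its log2FC was 4.55 (SE 1.24, edgeR adjusted *p* = 0.0221), and it passed without any 1 of the libraries, at values from 3.60 (without untreated CHLA-266) to 9.67 (without untreated BT-16, where the remaining untreated library has no count and the value depends on the prior count). Even so, its level after treatment was 1.18 TPM in BT-16 and 0.896 TPM in CHLA-266, against 24.5 and 31.5 TPM of *TGFBR1*. *TGFBR3*, a co-receptor that presents *TGFB2* to the signalling receptors, had 6196 counts before and 6029 after treatment in BT-16, with 3161 and 7685 in CHLA-266. In CPM this was 89.8 and 104 for BT-16 and 51.3 and 148 for CHLA-266, so the larger difference lay in CHLA-266. The log2FC was 0.84 (SE 0.27, edgeR adjusted *p* = 0.0432), and the call was lost without untreated CHLA-266 (log2FC 0.49, adjusted *p* = 0.198) or treated CHLA-266 (log2FC 0.58, adjusted *p* = 0.0507).

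Of the receptor-activated SMADs, the 3 that serve BMP receptors were downregulated. *SMAD9* had 2053 counts before and 670 after treatment in BT-16, while CHLA-266 had 1662 and 328, and both treated libraries, at 11.6 and 6.31 CPM, were below both untreated ones, at 29.8 and 27.0 CPM. It fell by 1.66 on the log2 scale (SE 0.30, edgeR adjusted *p* = 0.00402), the lowest log2FC of all members that passed. Its share of the summed TPM of the 5 receptor-activated SMADs was 18.1% before treatment in both cell lines and 9.58% and 6.69% after it in BT-16 and CHLA-266. *SMAD5*, the most abundant of the 5 in TPM, had 7350 counts before and 4350 after treatment in BT-16, with 6401 and 3545 in CHLA-266 (log2FC -0.55 ± 0.15, edgeR adjusted *p* = 0.0241). *SMAD1* had 1444 counts before and 847 after treatment in BT-16, while CHLA-266 had 1343 and 527 (log2FC -0.79 ± 0.25, edgeR adjusted *p* = 0.0388). Of the 4 fits without 1 library, *SMAD1* and *SMAD5* each passed in the fit without treated BT-16 alone. Neither passed with upper-quartile normalization (adjusted *p* = 0.208 and 0.311 in edgeR) or library totals (0.137 and 0.134), whereas *SMAD9* passed in all of these.

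The SMADs of TGF-beta and activin receptors passed in neither direction. *SMAD2* had 9773 counts before and 6602 after treatment in BT-16, with 9483 and 7330 in CHLA-266, with a log2FC of -0.21 (SE 0.17, edgeR adjusted *p* = 0.348) whose sign turned with upper-quartile normalization (0.13) and library totals (0.01). *SMAD3* had 2797 counts before and 2802 after treatment in BT-16, while CHLA-266 had 1074 and 1006, with a log2FC of 0.23 (SE 0.46, edgeR adjusted *p* = 0.71). Its level followed the cell line, with 40.5 and 48.5 CPM for BT-16 against 17.4 and 19.4 CPM for CHLA-266. Whether the SMADs of the 2 branches differed in response was not tested.

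*SMAD4*, the common partner of all receptor-activated SMADs, had 4101 counts before and 2061 after treatment in BT-16, with 3979 and 2274 in CHLA-266 (log2FC -0.64 ± 0.17, edgeR adjusted *p* = 0.0215). *SMAD6*, the inhibitory SMAD that acts mainly on BMP signalling and whose window held GTCTAGAC, had 1831 counts before and 932 after treatment in BT-16, while CHLA-266 had 2035 and 593. Both treated libraries were below both untreated ones, and the log2FC was -1.11 (SE 0.24, edgeR adjusted *p* = 0.00909), which passed without each library except untreated CHLA-266 (log2FC -0.95, adjusted *p* = 0.0537). *SMAD7*, the inhibitor of TGF-beta receptors with 2 copies of CAGAC, had 255 to 435 counts and passed in neither direction (log2FC -0.23, edgeR adjusted *p* = 0.625), and its sign turned with upper-quartile normalization (0.12) and library totals (0.0029).

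The *ID* genes, which encode inhibitors of differentiation, were among the most abundant members, and *ID3* was the highest in TPM of all members in each library. *ID3* had 21282 counts before and 11871 after treatment in BT-16, with 15626 and 6782 in CHLA-266, and both treated libraries were below both untreated ones in CPM. Its log2FC was -0.74 (SE 0.23, edgeR adjusted *p* = 0.0358). It did not pass without untreated BT-16 (log2FC -0.60, adjusted *p* = 0.142) or treated CHLA-266 (log2FC -0.44, adjusted *p* = 0.125). Its share of the summed TPM of the 4 *ID* genes was 60.7% before and 51.4% after treatment in BT-16, with 59.3% and 48.2% in CHLA-266.

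The other *ID* genes did not pass and did not move together. *ID1* had 9032 counts before and 6206 after treatment in BT-16, while CHLA-266 had 6743 and 4198 (log2FC -0.35, edgeR adjusted *p* = 0.173, and -0.36 with adjusted *p* = 0.0478 in edgeR with the block, but 0.144 in DESeq2 with the block). *ID2* had 2744 counts before and 3380 after treatment in BT-16, with 2364 and 1907 in CHLA-266 (log2FC 0.28, edgeR adjusted *p* = 0.345). *ID4* had 2467 counts before and 3687 after treatment in BT-16, while CHLA-266 had 2419 and 2308 (log2FC 0.53, edgeR adjusted *p* = 0.0747), and was upregulated with the block (log2FC 0.51, edgeR adjusted *p* = 0.0198).

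**Figure D3:**
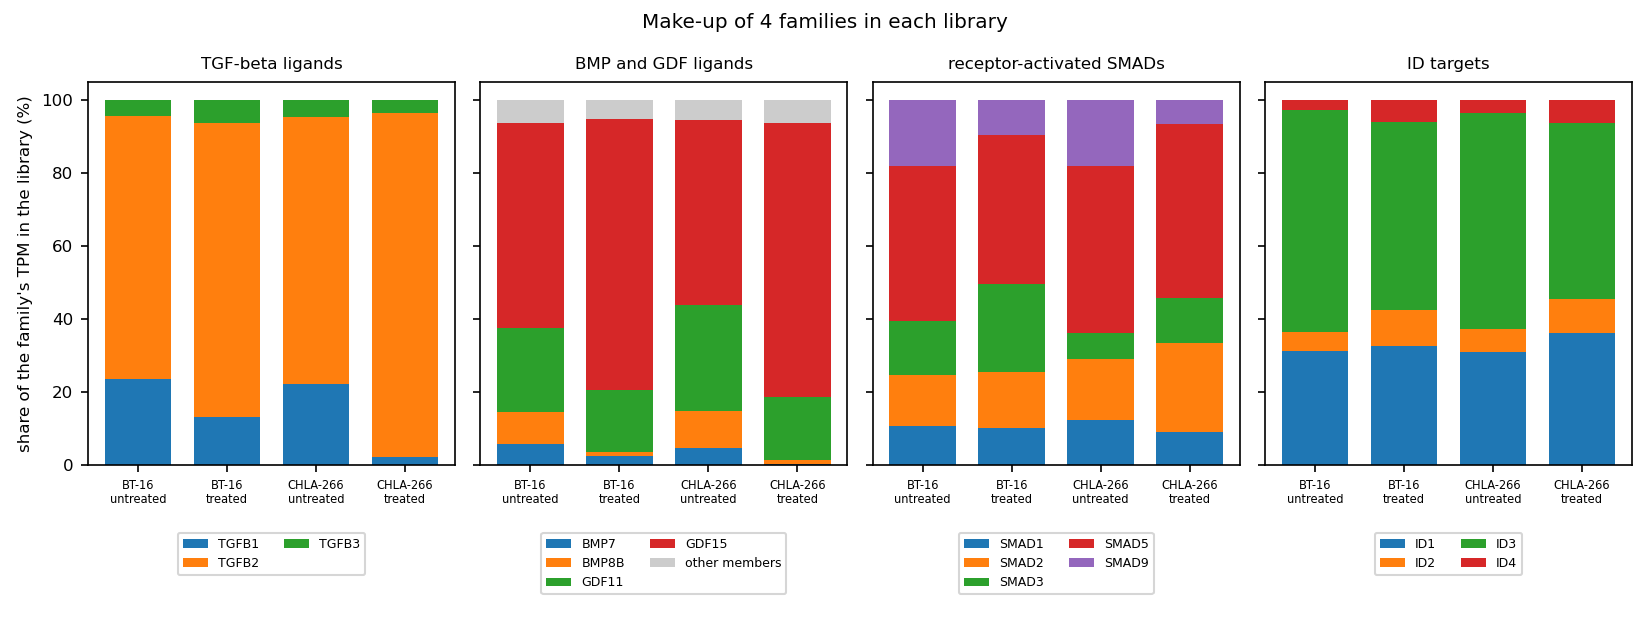
Share of each member in the summed TPM of its family (vertical axis, %) for 4 families in the 4 libraries, with members that never reach 5% joined as other members. *TGFB2* makes up 72.0% before and 80.6% after treatment of the TGF-beta ligands in BT-16, with 73.1% and 94.2% in CHLA-266, and the share of *SMAD9* is smaller after treatment in both cell lines.

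Of the secreted antagonists, follistatin and noggin were upregulated. *FST*, whose product binds activins, had 12 counts before and 588 after treatment in BT-16, with 32 and 148 in CHLA-266. All treated values were above all untreated ones, at 10.2 and 2.85 CPM against 0.174 and 0.520 CPM, and the log2FC was 4.23 (SE 0.78, edgeR adjusted *p* = 0.00443). *NOG*, whose product binds BMPs, had 25 counts before and 230 after treatment in BT-16, while CHLA-266 had 2 and 188 (log2FC 4.23 ± 0.91, edgeR adjusted *p* = 0.00874). Its level in the treated libraries was alike, at 3.98 and 3.62 CPM. Both genes passed without any 1 of the libraries, with a log2FC of 3.03 (without treated BT-16) to 5.21 (without untreated CHLA-266) for *FST* and of 3.38 (without untreated CHLA-266) to 6.78 (without untreated BT-16) for *NOG*. *GREM1* had at most 69 counts and *CHRD* at most 195, and neither passed. The log2FC of *CHRD* was -0.21, with its sign turned by upper-quartile normalization (0.14) and library totals (0.035).

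The 12 downregulated members depended on how the libraries were scaled. With upper-quartile normalization, which moved the median log2FC of all genes up by 0.35, 3 of the 12 members passed and 10.5% of all genes were downregulated. With library totals alone, which moved it by 0.23, 3 of the 12 passed and 13.0% of all genes were downregulated, and 3 of 12 passed among genes with at least 10 counts in each library. *BMP8B*, *SMAD9*, and *SMAD6* were past the threshold in all 12 alternatives that kept the 4 libraries, and all 12 members kept a lower level after treatment in each of these alternatives. Fewer of them passed without 1 library, namely 4 of 12 without untreated BT-16, 3 without untreated CHLA-266, and 8 without either treated library. *ACVR1B*, *BMPR1A*, *TGFBR1*, *BMPR2*, *SMAD1*, *SMAD4*, and *SMAD5* each passed in 1 of these 4 fits. The 12 upregulated members all passed with both of these scalings, where 24.1% and 20.4% of all genes were upregulated.

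Levels per length separated the upregulated members into 2 sets. In the treated libraries, 95% of the olfactory receptor genes lay below 26.3 (BT-16) and 21.2 (CHLA-266) counts per kilobase of exon, and before treatment below 4.11 and 3.81. *GDF15*, *GDF11*, *TGFBR3*, *BMP6*, *FST*, and *NOG* were above this value in both treated libraries. The lowest of these in a treated library was *FST*, with 53.8 counts per kilobase in CHLA-266. *INHBA*, *BMP2*, *BMP10*, *GDF10*, *ACVRL1*, and *TGFBR2* were not above it in at least 1 treated library. *TGFBR2* had 17.1 and 11.7 counts per kilobase after treatment and *INHBA* 19.3 and 14.0, so both lay below it in both cell lines. *BMP2* lay above it in BT-16 alone (29.3 counts per kilobase) and *GDF10* in CHLA-266 alone (26.9). All 12 downregulated members were above it in both treated libraries.

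**Figure D4:**
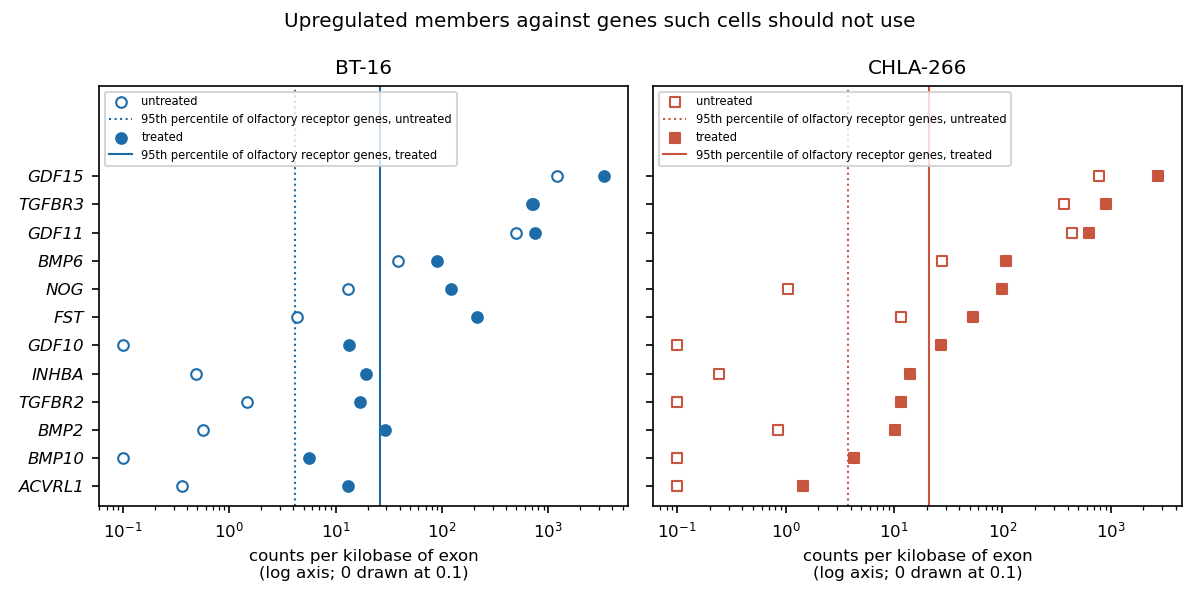
Counts per kilobase of exon (horizontal log axis, 0 drawn at 0.1) of the 12 upregulated members in untreated (open) and treated (filled) libraries of BT-16 (left) and CHLA-266 (right), with the 95th percentile of 380 olfactory receptor genes as dotted (untreated) and solid (treated) lines. *GDF15*, *TGFBR3*, *GDF11*, *BMP6*, *NOG*, and *FST* lie to the right of the solid line in both panels, and *INHBA*, *TGFBR2*, *BMP10*, and *ACVRL1* lie to its left in both.

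Both cell lines moved the same way for most members. In CPM, 30 of 54 members were higher in the treated library of both lines and 16 were lower in both, against 48.5% and 36.1% of all genes tested, and the other 8 moved in opposite directions. A difference in response between the lines could not be tested, because each line had 1 library per condition. The log2 ratio of treated to untreated was larger in size in CHLA-266 for *TGFB1* (-3.05, 95% interval -3.27 to -2.83, against -0.83 in BT-16, -0.94 to -0.73), for *BMP7* (-2.03 against 0.01), and for *TGFBR3* (1.53 against 0.22). For *FST* it was larger in BT-16, at 5.81 (5.05 to 6.83) against 2.44 (1.89 to 3.05). These exact Clopper-Pearson intervals cover counting error only. Odd numbers made up only 20.5% to 34.2% of counts up to 20, so pairs may have counted double, which would widen the intervals.

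**Figure D5:**
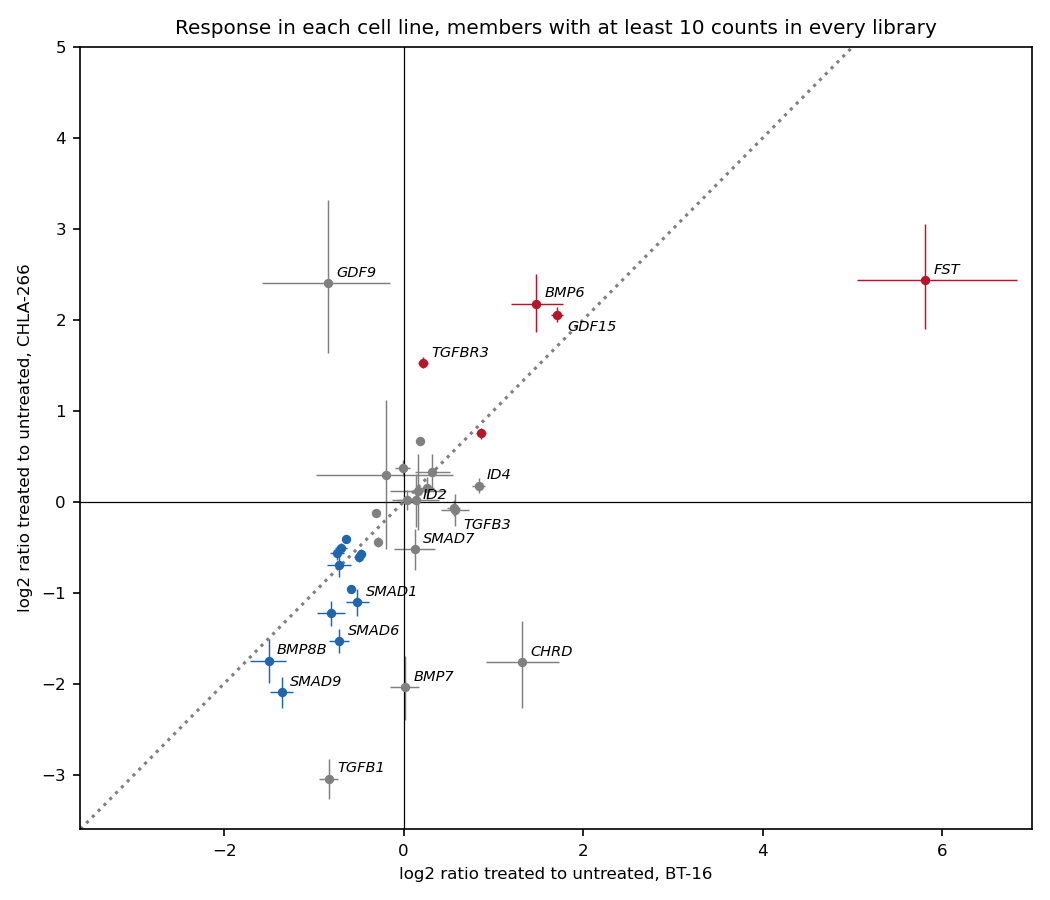
Log2 ratio of treated to untreated normalized counts in BT-16 (horizontal axis) and CHLA-266 (vertical axis) for the 35 members with at least 10 counts in every library, with exact 95% counting intervals as bars, in red for upregulated and blue for downregulated members, and a dotted line of equal response. *TGFB1* (-0.83 and -3.05) lies below the line, *FST* (5.81 and 2.44) lies to its right, and *GDF9* and *CHRD* lie in quadrants of opposite direction.

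Between the cell lines, 3 of 54 members differed in edgeR's test with the treatment in the model, where 2.3% of all genes did. All 3 were lower in CHLA-266. *SMAD3* had a log2 difference of -1.27 (SE 0.18, edgeR adjusted *p* = 3.01e-05), *BMP7* of -1.61 (standard error 0.38, adjusted *p* = 0.0161), and *TGFB1* of -1.12 (standard error 0.31, adjusted *p* = 0.0464). The difference in *SMAD3* was present before and after treatment, whereas that in *BMP7* was larger in the treated libraries. *TGFB1* was close in untreated BT-16 and CHLA-266 (30.9 and 29.8 CPM) and stood apart in the treated libraries alone (17.3 and 3.60 CPM). The fit leaves 1 residual degree of freedom for each gene.

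Other genes of the pathway were taken from 5 lists with 70 genes in all, of which 18 were upregulated and 6 downregulated after treatment, with a median log2FC of 0.71. The counts of each list stand against the 16.1% of all genes tested that were upregulated and the 19.1% downregulated, and no list was tested as a whole. Of 13 genes known to respond to TGF-beta or activin, 7 were upregulated and none downregulated. With a block for the cell line, 9 of these were upregulated and 1 was downregulated. *CDKN1A*, an inhibitor of the cell cycle that p53 also induces, had 8181 counts before and 25541 after treatment in BT-16, with 6485 and 19760 in CHLA-266 (log2FC 1.88 ± 0.17, edgeR adjusted *p* = 0.000136). *CDKN2B*, another inhibitor of the cell cycle, had 594 counts before and 1810 after treatment in BT-16, while CHLA-266 had 651 and 2502 (log2FC 2.05 ± 0.26, edgeR adjusted *p* = 0.000707). *SNAI2*, a transcription factor of mesenchymal cells, had no count in either untreated library and 218 and 40 counts after treatment (adjusted *p* = 0.00306 in edgeR), and was not above the olfactory receptor genes in at least 1 treated library. *SNAI1*, a transcription factor related to *SNAI2*, had a log2FC of 0.15 and passed in neither direction.

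Of 15 genes for the latency and activation of TGF-beta, 5 were upregulated and 2 downregulated. *ITGAV*, the integrin subunit that binds latent TGF-beta, had 39507 counts before and 62442 after treatment in BT-16, with 42867 and 84615 in CHLA-266 (log2FC 1.09 ± 0.23, edgeR adjusted *p* = 0.00763). *FURIN*, the protease that cleaves the precursors of these ligands, had 10510 counts before and 3596 after treatment in BT-16, while CHLA-266 had 7333 and 1662 (log2FC -1.53 ± 0.29, edgeR adjusted *p* = 0.00523). *LTBP2*, a matrix protein of the latent TGF-beta binding family, and *LRRC32*, which anchors latent TGF-beta to the cell surface, had log2FCs of 1.18 and 4.50 (adjusted *p* = 0.0135 and 0.0143 in edgeR). *LTBP2* did not pass without treated CHLA-266 (1.03) and *LRRC32* did not pass without treated BT-16 (4.02). *PCSK6*, a protease related to *FURIN*, had a log2FC of -0.98 (adjusted *p* = 0.0255 in edgeR) and did not pass without untreated CHLA-266 (-0.87), while the value lay between -1.51 without treated CHLA-266 and -0.58 without treated BT-16.

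Of 17 other secreted antagonists, 1 was upregulated and 1 downregulated. *SOST*, which encodes the bone protein sclerostin, had 44 counts before and 1179 after treatment in BT-16, with 28 and 546 in CHLA-266 (log2FC 4.81 ± 0.45, edgeR adjusted *p* = 0.000151), and both treated libraries were above the olfactory receptor genes. *TWSG1*, a binding partner of chordin, had a log2FC of -0.59 (adjusted *p* = 0.0433 in edgeR) and was lost without untreated CHLA-266 (-0.35) and in 9 of 12 other alternatives.

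Of 11 other ligands and receptors of the family, 3 were upregulated and none downregulated. *BAMBI*, a receptor-like protein without a kinase that dampens signalling, had 34 counts before and 240 after treatment in BT-16, while CHLA-266 had 0 and 326 (log2FC 4.37 ± 1.17, edgeR adjusted *p* = 0.0209), and passed in each alternative but DESeq2 without the block. Its log2FC was 3.40 without untreated CHLA-266 and 11.2 without untreated BT-16, which again sets it against a library without a count. *AMHR2*, the receptor of anti-Müllerian hormone, and *ENG*, a co-receptor of endothelial cells, had at most 92 and 120 counts in any library, with log2FCs of 3.78 and 2.14. *AMHR2* did not pass without treated BT-16 (3.42) or untreated BT-16 (3.31), and of the 4 fits without 1 library *ENG* passed in the fit without treated BT-16 alone.

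Of 14 intracellular regulators of SMADs, 2 were upregulated and 3 downregulated. *NEDD4L*, a ubiquitin ligase that acts on activated SMAD2 and SMAD3, had 1236 counts before and 2328 after treatment in BT-16, with 622 and 1805 in CHLA-266 (log2FC 1.42 ± 0.28, edgeR adjusted *p* = 0.0059). *ZEB2*, a SMAD-binding repressor of epithelial genes, had 26 counts before and 192 after treatment in BT-16, while CHLA-266 had 6 and 164 (log2FC 3.75 ± 0.75, edgeR adjusted *p* = 0.00634). *TGIF2*, a SMAD corepressor, had 2504 counts before and 627 after treatment in BT-16, with 1931 and 953 in CHLA-266 (log2FC -1.21 ± 0.27, edgeR adjusted *p* = 0.00968). *TGFBRAP1* and *FKBP1A*, whose products bind TGF-beta receptors, had log2FCs of -0.66 and -0.61 (adjusted *p* = 0.0151 and 0.0185 in edgeR), and neither passed without untreated BT-16 (-0.64 and -0.58) or untreated CHLA-266 (-0.67 and -0.64). With a block for the cell line, 10 of the 70 genes were downregulated. Of the 18 upregulated genes on the 5 lists, 11 were above the 95th percentile of the olfactory receptor genes in both treated libraries, and *SNAI2*, *TGFBI*, *ZEB2*, *LRRC32*, *ITGB6*, *AMHR2*, and *ENG* were not.

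Exons of 23 members overlap an exon of another annotated gene, and in 20 members that exon lies on the opposite strand. These include the upregulated *INHBA*, *BMP6*, and *GDF11* and the downregulated *BMP8B*, *SMAD1*, and *SMAD5*. The library kit keeps the strand, but whether the counting used it is not given in the sources used here, so a share of the reads of these genes could belong to the overlapping gene. The downregulated *BMPR2* and *SMAD4*, like *GDF1*, overlap an exon of a protein-coding gene on the same strand. Strand could not separate the reads there.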

How the data were processed

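RNA of untreated and treated BT-16 and CHLA-266 cells, 1 library each, was sequenced with paired ends. The authors demultiplexed reads with bcl2fastq 2.20, trimmed adapters, aligned to hg38 with STAR, counted per gene, and removed genes of the sex chromosomes. The deposited estimated counts carry no normalization, and the few that were not whole were rounded. The deposited log2 values come from the variance-stabilizing transformation (VST) of DESeq2. Whether pairs or single reads were counted is not given in the sources used here.

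Members and gene lists were chosen with earlier results of these data known. A gene that the choice of members leaves out and the values of 1 list gene, which is counted in its list, are not reported here. The main test was the quasi-likelihood test of edgeR 4.0.16 (R 4.3.3) with TMM and no term for the cell line, adjusted by Benjamini and Hochberg's method over 18066 genes. Libraries are paired by their line, and deviations of paired libraries from their group means correlated at 0.263 over 12620 genes. CPM are TMM-normalized. Ratios within a line used 0.5 added counts and exact Clopper-Pearson 95% intervals. Exon lengths and overlaps were taken from GENCODE 44 on hg38. With cell lines as replicates, *p* values measure the spread between these libraries. Values are given for members that passed or reached 1000 counts in some library, and for up to 3 genes with the smallest adjusted *p* in each list and direction. *SNAI1* and *PTPRC* were named after their values were seen. The fits were also run on simulated counts with large changes and the same dispersion for every gene. These simulations do not show how calls with small fold changes behave in these data. Alternatives were a block for the cell line, DESeq2 1.42.0, other scalings and filters, limma 3.58.1 on VST values, halved counts, an absolute log2 fold change above 1, and fits without 1 library. Bias-adjusted deviances of edgeR were added after seeing the data.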

Additional observations from a re-analysis of the deposited data

Results flagged for a closer look

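*GDF9* and *CHRD* moved in opposite directions in the cell lines, with counting intervals of the deposited counts that did not reach 0 in either. For *GDF9*, an oocyte ligand, the log2 ratio of treated to untreated was -0.84 in BT-16 (56 and 26 counts) and 2.40 in CHLA-266 (16 and 73 counts). That of *CHRD*, the BMP antagonist chordin, was 1.31 in BT-16 (76 and 159 counts) and -1.77 in CHLA-266 (195 and 48 counts). With halved counts, which allow for pairs counted double, the interval of *GDF9* in BT-16 ran from -1.92 to 0.14 and reached 0, and that of *CHRD* reached 0 in neither line. The difference between the lines was not tested, because each line had 1 library per condition. Exons of both genes overlap an exon of another gene on the opposite strand, namely *UQCRQ* for *GDF9* and *THPO* for *CHRD*, and the part of such reads in these values was not tested.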

How the results depend on the processing

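Of 54 members, 12 were upregulated in the reported fit and 7 of 35 among genes that reach 10 counts in each library. Only 5 of the 12 reached 10 counts in each library, and these 5 all passed with that filter. The 12 downregulated members became 3 with that filter, 3 with library totals, 3 with upper-quartile normalization, 6 with limma on the VST values, and 4 above an absolute log2 fold change of 1. Without 1 library, where the lone library of its group is assumed to vary like the other group, 11 to 13 members were upregulated and 3 to 11 downregulated. With the cell line as a replicate block, 14 were upregulated and 15 downregulated, against 17.9% and 23.7% of all genes, and the 24 members called without the block were all called with it.

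Of the 70 genes on pathway lists, 6 were downregulated in the reported fit, 3 with the filter on 10 counts, 3 with library totals, 2 with upper-quartile normalization, 2 above an absolute log2 fold change of 1, and 10 with the replicate block. Without 1 library, 3 to 10 were downregulated and 14 to 19 upregulated. Of the 3 members that differed between the lines, *SMAD3* passed with the filter on 10 counts (1 member) and with the filter of edgeR (1 member), and 0 passed with bias-adjusted deviances, an alternative chosen after seeing the data.

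Directions turned in few members, none of which had passed. *SMAD2* was at 0.0097 with library totals and at 0.13 with upper-quartile normalization, *SMAD7* at 0.0029 and 0.12, and *CHRD* at 0.035 and 0.14. Over the fits without 1 library, *ACVR1* ranged from -0.13 (without untreated BT-16, and likewise without treated CHLA-266) to 0.20, *SMAD3* from -0.58 (without treated BT-16, with -0.26 without untreated CHLA-266) to 0.96, and *ID2* from -0.091 (without treated BT-16) to 0.59. Within a line, library totals turned the log2 ratio of *SMAD2* in CHLA-266 to 0.038 and that of *ID1* in BT-16 to 0.0029. The cause of these shifts was not tested. Members with a few counts in the untreated libraries are limited by depth.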
